A study of Mus musculus with 441 samples.

Results

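The 32 genes described here encode the enzymes and transporters that carry glucose carbon from the cell surface to lactate or through the mitochondrial tricarboxylic acid (TCA) cycle. They were taken by gene name as a list of known pathway members, and all 32 were among the 13561 genes of the deposited table. The 16 glycolysis members are the glucose transporters Slc2a1 and Slc2a3, the glycolytic enzymes Hk1, Hk2, Gpi1, Pfkl, Pfkp, Aldoa, Tpi1, Gapdh, Pgk1, Pgam1, Eno1 and Pkm, lactate dehydrogenase Ldha and the lactate exporter Slc16a3. The 16 mitochondrial-side members are 4 pyruvate dehydrogenase genes (Pdha1, Pdhb, Dlat, Dld) and 12 TCA genes (Cs, Idh2, Idh3a, Idh3b, Idh3g, Ogdh, Sucla2, Suclg1, Suclg2, Fh1, Mdh1, Mdh2), although Mdh1 encodes the cytosolic malate dehydrogenase.

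The study measured full-length single-cell RNA (SMART-Seq2) in 441 mouse cells from digested pancreatic islets, sorted as CD4 T cells that bind 1 of 2 peptide tetramers, named HIP (184 cells) and Ins (257 cells). The labels give no strain, age, treatment or animal, and neither sort name is spelled out. The authors' annotation placed 111 HIP and 61 Ins cells in a T follicular helper class, 3 HIP and 115 Ins cells in a regulatory T cell (Treg) class, 61 HIP and 25 Ins cells in an activated CD4 class (called cluster 2 here), 9 HIP and 35 Ins cells in a dividing class and 21 Ins cells in a B cell class (called cluster 4 here). Each sort counts as 1 sample because no label ties cells to animals, so there was no test between sorts or classes and no p-value is given. The classes were clustered by the authors from the same expression values, and every difference between classes is a description.

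Glycolysis splits glucose in the cytosol and yields pyruvate, ATP and NADH, and lactate dehydrogenase restores the NAD+ it needs. The pyruvate dehydrogenase complex turns pyruvate into acetyl-CoA, which citrate synthase feeds into the TCA cycle, and the NADH from the cycle drives the respiratory chain. Activated and dividing T cells are known for a high glycolytic rate, and the genes of the pathway are known targets of Myc and of the hypoxia-inducible factor HIF-1, which binds ACGTG or GCGTG. Regulatory T cells are often described as relying more on mitochondrial oxidation.

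Promoter windows of 6 members are shown because their genes were among the 3 largest differences of a comparison below (Ldha, Pgk1, Pgam1, Cs, Mdh2) or export the end product (Slc16a3), and because the hypoxia-response core is a known feature of glycolytic promoters. The windows run from 250 bases before to 50 bases after the RefSeq start on GRCm38, all of genes on the + strand, and capitals mark ACGTG or GCGTG on either strand. Ldha has a further RefSeq window, not shown, with no ACGTG. Other members with differences among the 3 largest are not shown. Among these, Idh3g of the TCA list has 1 ACGTG, and Tpi1 and Gpi1 of glycolysis have neither motif. The 6 windows therefore do not represent the lists, whose shares are given below. The windows shown lie at chr7:46845554-46845853 (Ldha), chrX:106186850-106187149 (Pgk1), chr19:41911621-41911920 (Pgam1), chr11:120948817-120949116 (Slc16a3), chr10:128337477-128337776 (Cs) and chr5:135778399-135778698 (Mdh2).
Ldha: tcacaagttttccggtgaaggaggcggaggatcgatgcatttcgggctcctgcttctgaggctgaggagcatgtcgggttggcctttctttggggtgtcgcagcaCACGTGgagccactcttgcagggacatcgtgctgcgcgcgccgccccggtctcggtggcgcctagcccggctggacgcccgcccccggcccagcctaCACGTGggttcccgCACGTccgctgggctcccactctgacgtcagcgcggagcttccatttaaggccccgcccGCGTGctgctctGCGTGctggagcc
Pgk1: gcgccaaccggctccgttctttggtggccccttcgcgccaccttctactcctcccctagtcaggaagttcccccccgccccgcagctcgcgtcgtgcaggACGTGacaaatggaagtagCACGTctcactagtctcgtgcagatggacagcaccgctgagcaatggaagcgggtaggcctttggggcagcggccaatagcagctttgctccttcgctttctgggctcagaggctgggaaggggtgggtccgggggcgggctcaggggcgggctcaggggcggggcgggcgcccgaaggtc
Pgam1: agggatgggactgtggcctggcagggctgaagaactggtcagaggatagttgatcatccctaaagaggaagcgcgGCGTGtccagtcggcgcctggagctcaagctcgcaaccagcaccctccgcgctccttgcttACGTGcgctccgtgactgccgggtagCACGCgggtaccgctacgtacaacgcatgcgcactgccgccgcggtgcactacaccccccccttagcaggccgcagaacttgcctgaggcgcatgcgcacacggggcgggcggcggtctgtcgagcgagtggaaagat
Slc16a3: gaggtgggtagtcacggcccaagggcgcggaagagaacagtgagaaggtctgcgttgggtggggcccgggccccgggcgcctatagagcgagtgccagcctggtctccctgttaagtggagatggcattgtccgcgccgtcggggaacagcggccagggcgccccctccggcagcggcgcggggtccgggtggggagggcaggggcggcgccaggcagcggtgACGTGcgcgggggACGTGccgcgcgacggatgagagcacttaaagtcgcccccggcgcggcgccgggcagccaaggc
Cs: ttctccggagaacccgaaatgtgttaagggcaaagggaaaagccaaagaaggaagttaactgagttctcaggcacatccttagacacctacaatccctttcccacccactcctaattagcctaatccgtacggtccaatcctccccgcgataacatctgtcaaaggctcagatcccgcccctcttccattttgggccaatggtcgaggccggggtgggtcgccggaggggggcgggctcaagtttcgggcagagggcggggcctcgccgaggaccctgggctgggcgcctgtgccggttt
Mdh2: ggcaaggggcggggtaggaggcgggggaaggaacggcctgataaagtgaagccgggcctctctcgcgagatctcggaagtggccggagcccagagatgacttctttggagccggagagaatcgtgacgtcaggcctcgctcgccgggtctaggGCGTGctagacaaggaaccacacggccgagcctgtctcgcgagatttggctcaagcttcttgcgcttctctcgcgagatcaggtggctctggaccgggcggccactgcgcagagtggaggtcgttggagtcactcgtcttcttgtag

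ACGTG on either strand was found in at least 1 window of 10 of 15 glycolysis genes (66.7%), 4 of 15 pyruvate dehydrogenase and TCA genes (26.7%) and 21.8% of all 27025 genes with a window, among 30 of 32 members that had one in RefSeq. Some genes have several windows, and counted by window the lists were closer, at 11 of 22 (50.0%) and 9 of 20 (45.0%). GCGTG was found for 8 of 15 genes of each list (53.3%) against 35.2% of all genes. CACGTG, the E-box bound by Myc family factors, which contains ACGTG, was found for 1 of 15 genes of each list (6.67%) against 8.09% of all genes, in 1 of 22 and 3 of 20 windows. G+C content moves with these letters, since the median was 64.8% for glycolysis windows, 60.0% for the mitochondrial-side windows and 52.7% for all genes. Among windows of 60% G+C or more, ACGTG was in 9 of 12 glycolysis genes (75.0%), 3 of 9 mitochondrial-side genes (33.3%) and 28.0% of 8543 genes, a restriction added after the data were seen. A match says only that the letters are present, and factor binding was not measured.

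The class names were set against marker genes. Cd3e, a T cell receptor subunit, was at 1 TPM or more in 93.4% to 100% of the cells of each T cell class and in 1 of 21 cluster 4 cells. Foxp3, the Treg lineage factor, was detected in 94 of 115 Ins Treg cells, in 27 of 35 Ins dividing cells and in 0 of 9 HIP dividing cells, so the dividing classes of the sorts differ in Foxp3 detection. Mki67, a proliferation marker, was found in 8 of 9 dividing cells of the HIP sort, 23 of 35 of the Ins sort and 6 of 115 Ins Treg cells. Markers of HIP T follicular helper and cluster 2 cells were mixed. Cxcr5 was detected in 40.5% and 3.28% of them and Bcl6 in 47.7% and 4.92%. Pdcd1 was alike (62.2% and 62.3%), and Il21 was found more often in cluster 2 (23.4% and 45.9%). Of the activation markers, Cd44 was alike (47.7% and 45.9%) and Nkg7 was found more often in cluster 2 (10.8% and 60.7%). Cluster 4 carried Cd79a, a B cell receptor component, in 19 of 21 cells and Igj, the joining chain of secreted antibody, in all 21, where Igj took 3.01% to 32.1% of a cell's TPM. The number of genes per cell ran from 625 to 5929, with medians of 1862 to 2075 in the nondividing T cell groups with over 3 cells, 3992 in HIP dividing cells, 3610 in Ins dividing cells and 2477 in cluster 4. Depth is unknown because TPM (a length-corrected share of a cell's transcripts, scaled to 1000000) keeps none. The pancreatic hormone transcript Ins2 was detected in 15 of 115 Ins Treg cells and 12 of 111 HIP T follicular helper cells.

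Among the 420 T cells, 4 glycolytic genes led the list by mean level. Gapdh, the glyceraldehyde phosphate dehydrogenase, had a mean of 2878 ± 1942 TPM (SD, n = 420 cells) and was detected, at 1 TPM or more, in 93.3% of cells. Ldha followed at 2065 ± 1746 TPM in 85.2% of cells. Pkm, the pyruvate kinase of the last ATP-yielding step, reached 1423 ± 1077 TPM in 86.2%, and Aldoa, the aldolase, 1260 ± 1308 TPM in 78.8%. The SD of each gene is of the size of its mean, so neighbours in this order do not differ beyond the spread between cells. Gapdh, often used as a constant reference, was listed at 0 in 28 of 420 T cells. Gapdh, Ldha, Pgk1, Pgam1 and Eno1 have near-identical processed copies in the mouse genome, and how reads were divided among such copies was not tested.

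Further down, the 2 pathways interleaved. Mdh2, the mitochondrial malate dehydrogenase that closes the TCA cycle, led the mitochondrial side at 650 ± 838 TPM and was detected in 61.7% of T cells. It lay beside Eno1, the enolase, at 638 ± 668 TPM and ahead of Gpi1 (404 TPM), Pgk1 (403 TPM) and Tpi1 (345 TPM), the isomerase and kinase steps of glycolysis. Idh3b, a subunit of the NAD-dependent isocitrate dehydrogenase, had 336 TPM, Cs, the citrate synthase of the first TCA step, 163 TPM, and Pdha1, the catalytic subunit of pyruvate dehydrogenase, 115 TPM. The lowest members were Suclg2, detected in 3 of 420 T cells, and Hk2, in 8 of 420. The median member was detected in 43.0% of T cells for glycolysis and 29.2% for the mitochondrial side, against 7.86% for the median of all genes. Glycolysis placed 6 of 16 members and the mitochondrial side 2 of 16 in at least 50% of T cells, where 857 of 13561 genes were.

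**Figure D1:**
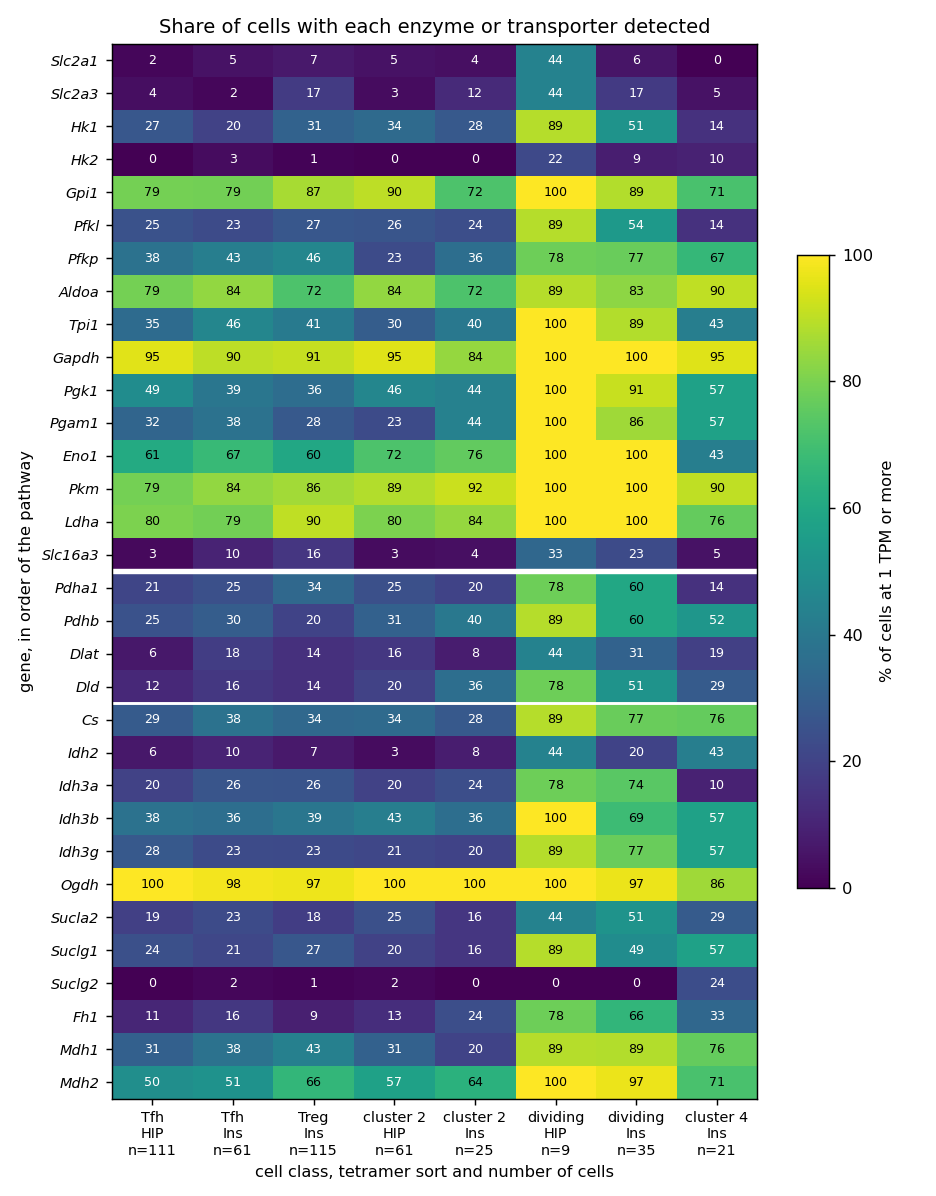
Percentage of cells with each of the 32 genes (rows) at 1 TPM or more (colour and printed value), by authors' class and tetramer sort (columns, with the number of cells); Tfh is the T follicular helper class. The dividing columns are high for most genes, and Gapdh, Ldha, Pkm and Aldoa are detected in most cells of every T cell group shown. The 3 HIP Treg cells have no column.

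Several steps have paired isozymes, and their members were detected unequally in T cells. Hexokinase was almost wholly Hk1, detected in 134 T cells against 8 for Hk2, an isozyme known for induction by growth signals. Mean Hk1 was 54.6 TPM in HIP and 37.2 TPM in Ins T cells, and mean Hk2 0.0472 TPM and 2.25 TPM. Hk2 was listed at 0 in all 111 HIP T follicular helper cells, so by counting error alone up to 2.70% of such cells could show a detected value. Of the phosphofructokinases, which set the committed step, Pfkp exceeded Pfkl in mean TPM (142 against 76.1 over 420 T cells), except in HIP cluster 2, where Pfkl was 73.3 and Pfkp 63.8 TPM, and in the 3 HIP Treg cells, where Pfkl was 17.3 TPM and Pfkp was listed at 0. The ATP-linked succinyl-CoA ligase subunit Sucla2 averaged 96.0 TPM, and its GTP-linked counterpart Suclg2 1.87 TPM.

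The glucose transporters were rare and seldom shared a cell. Among HIP T cells (184), 9 had Slc2a1 (GLUT1), 11 had Slc2a3 (GLUT3) and 2 had both. Among Ins T cells (236), the numbers were 14, 30 and 2. Idh2, the NADP-dependent mitochondrial isocitrate dehydrogenase, was detected in 8.81% of T cells, against 42.4% for Idh3b. At these low shares a cell without a read cannot be told from a cell without the transcript.

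Ogdh, the catalytic subunit of the oxoglutarate dehydrogenase complex, was above 0 in nearly every T cell, often at a low value. It was at 1 TPM or more in 98.8% of T cells, at 10 TPM or more in 64.8% and at 50 TPM or more in 30.0%, with a median of 14.2 TPM. Gpi1, the isomerase of the step after hexokinase, went from 83.3% to 65.2% and 62.4% at the same thresholds, and Tyr, the melanocyte tyrosinase, from 97.1% to 52.6% and 1.43%. Ogdh was 1 of 38 genes detected in at least 90% of T cells with a median under 50 TPM. At 50 TPM, Ogdh was detected in 27.0% of HIP T follicular helper cells, 23.5% of Ins Treg cells, 57.1% of Ins dividing cells and 77.8% of HIP dividing cells. Its share at 1 TPM enters the list counts and medians given here, and with Mdh2 it makes up the 2 mitochondrial-side members in at least 50% of T cells. Whether reads of other origin add to the low values was not tested.

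**Figure D2:**
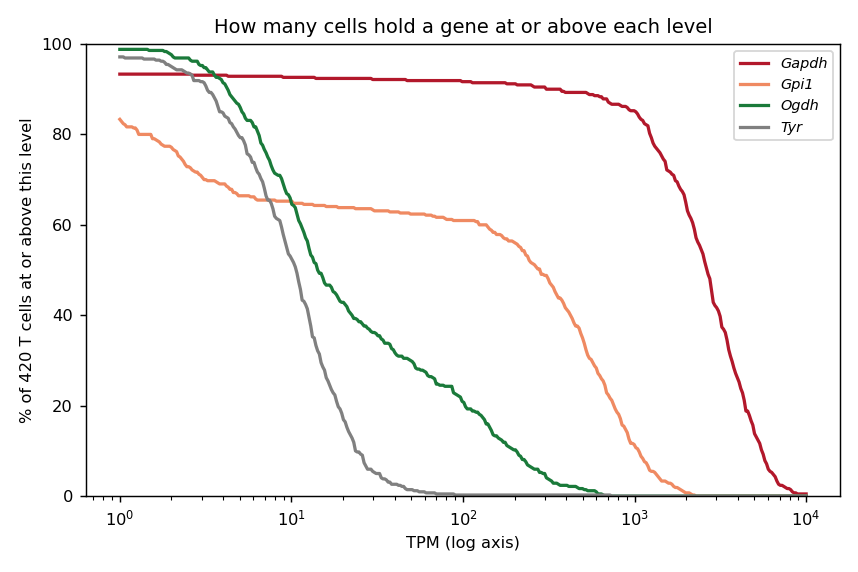
Percentage of the 420 T cells at or above a given TPM (x axis, log scale) for Gapdh, Gpi1, Ogdh and Tyr. Gapdh goes from 93.3% at 1 TPM to 92.6% at 10 TPM and has a median of 2643 TPM. Ogdh and Tyr drop from over 97% at 1 TPM to 30.0% and 1.43% at 50 TPM.

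Summed over its 16 genes, glycolysis exceeded the mitochondrial side in 96.7% of the T cells of the HIP sort (178 of 184) and in 97.5% of those of the Ins sort (230 of 236). In HIP T follicular helper cells the glycolysis sum had a lowest, median and highest value of 1234, 9321 and 27338 TPM, and the mitochondrial sum 12.7, 2181 and 13587 TPM. Ins Treg cells had 537, 8887 and 22955 TPM for glycolysis and 36.7, 2433 and 6849 TPM for the mitochondrial side. The medians of the nondividing groups with over 3 cells lay within 8887 to 9350 TPM for glycolysis and 2181 to 2571 TPM for the mitochondrial side, and the ranges of these groups overlapped. The 3 HIP Treg cells had medians of 7837 and 2076 TPM.

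Dividing cells had the highest median sums, while the highest single cells were in the nondividing classes. HIP dividing cells ran from 9813 over a median of 14255 to 18736 TPM for glycolysis, and Ins dividing cells from 5377 over 13965 to 20815 TPM. Their mitochondrial sums had medians of 3363 and 2874 TPM. Glycolysis genes took 1.41% of all TPM in HIP and 1.32% in Ins dividing cells, and 0.930% to 0.998% in the nondividing T cell groups with over 3 cells. The ratio of mean glycolysis to mean mitochondrial sum was 4.39 and 4.78 in dividing cells and 3.63 to 4.33 in those nondividing groups. The ratio of medians did not keep this order, at 4.24 in HIP dividing and 4.27 in HIP T follicular helper cells, nor did the ratio of means without Gapdh, at 2.82 in HIP dividing and 3.08 in HIP cluster 2 cells.

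Cluster 4 had a low glycolysis sum, with a median of 3562 TPM and a highest value of 7543 TPM, and a mitochondrial sum with a lowest, median and highest value of 685, 1965 and 4622 TPM. Its ratio of means was 1.79, below all T cell groups. TPM is a share of a cell's total, so Igj and Rn45s (ribosomal RNA) were removed from the total in both classes, an alternative added after the data were seen. The glycolysis median then was 4260 TPM in cluster 4 against 9059 TPM in Ins Treg cells, and the mitochondrial median 2573 against 2508 TPM. Cluster 4 stayed lower in glycolysis with these transcripts removed. Other abundant transcripts of cluster 4, such as Mzb1 (mean 12937 TPM), stayed in the total, and their part was not tested.

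**Figure D3:**
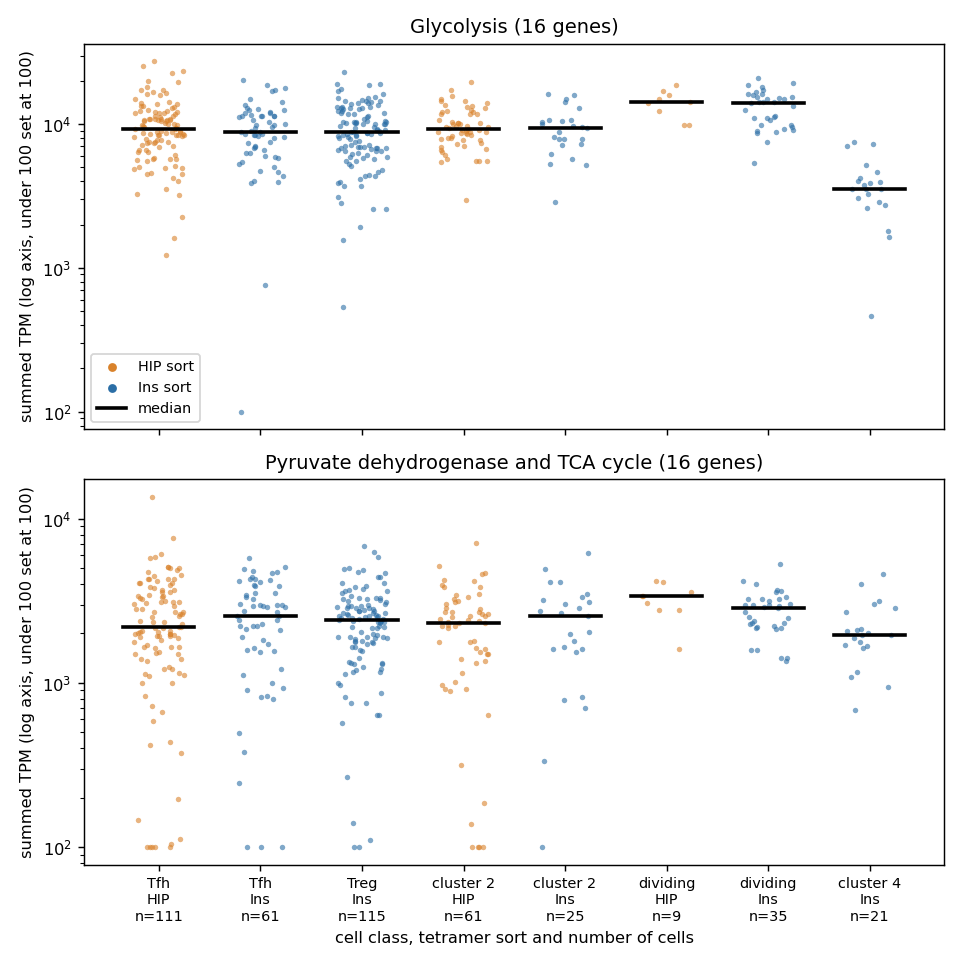
Summed TPM (log axes) of the 16 glycolysis genes (top) and the 16 pyruvate dehydrogenase and TCA genes (bottom) in each cell. Cells are grouped by class and sort, with the median as a black line and cells under 100 TPM drawn at 100. The 3 HIP Treg cells are not drawn. The glycolysis medians of the dividing groups (14255 and 13965 TPM) are the highest and that of cluster 4 (3562 TPM) the lowest.

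Between Ins Treg and T follicular helper cells the members differed little as lists. The median difference in mean log2(TPM + 1) was 0.20 for glycolysis and -0.16 for the mitochondrial side, against 0.01 for 6061 genes tested. Of the 16 members each, 3 and 1 were higher by 1 or more and 2 and 0 lower, and among all genes tested 9.01% were higher and 4.34% lower by that much. At 4 higher and 2 lower of 32 members, the counts lie near that background. As a median log2 ratio of mean TPM, the lists were at -0.16 and -0.32, so the glycolysis list has no fixed sign. Such a difference follows the share of cells in which a gene is detected.

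Ldha was the largest single difference, 1.72. In 115 Treg cells it had a lowest, median and highest value of 0, 2190 and 7527 TPM, and in 61 T follicular helper cells 0, 1385 and 5578 TPM, so the cells overlap. It was detected in 90.4% and 78.7% of them. Runs of cell names, blocks of 96 consecutive numbers that each hold 1 sort, give 3 groups of cells in the Ins sort. The run means of Ldha were 2128 to 2705 TPM in Treg and 1258 to 1865 TPM in T follicular helper cells, without overlap.

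Slc2a3 was detected in 17.4% of Ins Treg cells (20 of 115, exact 95% interval 11.0% to 25.6%) and in 1.64% of T follicular helper cells (1 of 61, 0.0415% to 8.80%). Hk1 was detected in 31.3% and 19.7%. By mean log2(TPM + 1), Ldha, Slc2a3 and Hk1 were above all T follicular helper runs in every Treg run, as 12% of all genes were, and Fh1 was below in every run, as 7.33% were. Mdh2 was detected in 66.1% of Treg and 50.8% of T follicular helper cells, a difference of 1.65 with overlapping runs. On the lower side, Pgam1 (138 against 260.5 TPM, difference -1.30), Aldoa (1021 against 1286 TPM, -1.18) and Ogdh (47.7 against 74.7 TPM, -0.82) led. The lactate exporter Slc16a3 was detected in 15.7% and 9.84% of cells. The summed lactate pair, Ldha and Slc16a3, had medians of 2267 and 1385 TPM, a ratio of 1.64.

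Dividing cells of the Ins sort were compared with Treg cells because most of them carried Foxp3. The median difference was 1.50 for glycolysis and 2.14 for the mitochondrial side, against 0.80 for all 8150 genes tested. Of 16 members each, 10 and 13 were higher by 1 or more, and none lower, while 42.3% of all genes tested were higher and 0.896% lower. In mean TPM, which depends less on detection, 8 (50%) and 12 (75%) of 16 were higher, beside 44.6% of all genes. The median log2 ratio of mean TPM was 0.07 and 0.09, against -0.14 for all genes. Gene number moves with this comparison, at medians of 3610 against 2017.

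Pgam1, the phosphoglycerate mutase, had the largest difference, 5.13. It was detected in 85.7% of dividing and 27.8% of Treg cells, with means of 364 and 138 TPM. Pgk1, the first ATP-yielding kinase of glycolysis, differed by 4.99 and was detected in 91.4% against 35.7% of cells. Idh3g, a regulatory subunit of the NAD-dependent isocitrate dehydrogenase, differed by 4.43, at means of 299 and 175 TPM. Gapdh had a lowest, median and highest value of 2029, 4265 and 6458 TPM in 35 dividing cells and 0, 2143 and 10407 TPM in 115 Treg cells. All dividing cells therefore had Gapdh, and their range lies inside that of the Treg cells. Ldha averaged 3107 and 2496 TPM.

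In mean TPM, the transporters were among the 8 of 16 glycolysis members that were not higher in dividing cells. Slc2a3 averaged 12.8 TPM in dividing and 47.8 TPM in Treg cells, at detected shares of 17.1% and 17.4%. Slc2a1 averaged 4.17 and 30.7 TPM, detected in 2 of 35 and 8 of 115 cells. Slc16a3 averaged 31.2 and 56.9 TPM, although its difference in mean log2(TPM + 1) was 0.16. Hk1, Pfkl and Pfkp were also lower in mean TPM. By segment, the genes from transport to the triose isomerase had median sums of 1948 and 1868 TPM in dividing and Treg cells, those from Gapdh to Pkm 7853 and 4405 TPM, and the lactate pair 3241 and 2267 TPM. The higher glycolysis sum of dividing cells lay in the lower part of the pathway, with a ratio of medians of 1.78 against 1.04 for the upper part. By run, 11 of 16 glycolysis and 10 of 16 mitochondrial-side members were in every dividing run above all Treg runs. Among all genes 39.8% were above (3.3% below).

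**Figure D4:**
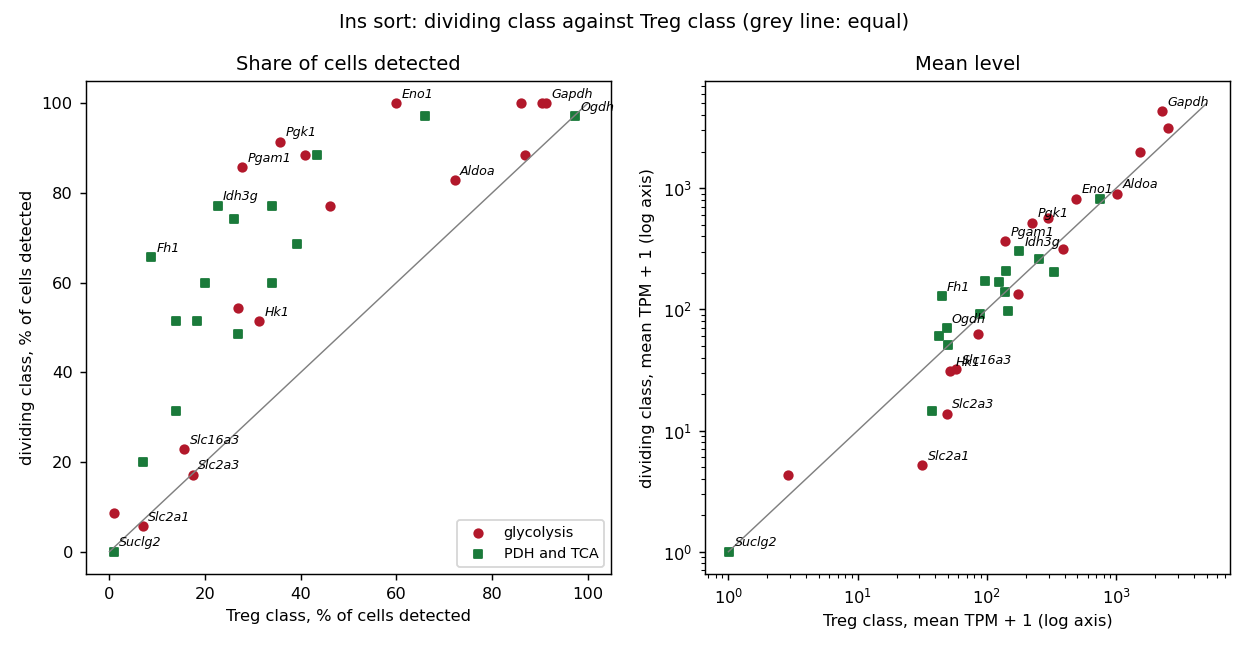
Each member in Ins Treg cells (x axis) and Ins dividing cells (y axis), as the percentage of cells detected (left) and as mean TPM + 1 on log axes (right), coloured by list, with the line of equality in grey. Most members lie well above the line at left and near it at right, where Gapdh and Pgk1 are above and Slc2a1, Slc2a3 and Slc16a3 below.

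The difference shrank when cells with like gene numbers were compared, an alternative added after the data were seen. Between 2500 and 3500 genes there were 12 dividing cells (median 3151 genes) and 19 Treg cells (2688). The glycolysis sum had medians of 10955 and 10839 TPM and the mitochondrial sum 2948 and 2883 TPM. The median member difference was 0.17 for glycolysis and 0.84 for the mitochondrial side, against 0.13 for all genes. Of the 16 glycolysis members 5 were higher by 1 or more and 3 lower, and 8 of the mitochondrial side were higher and none lower, where 24.1% of 8070 genes were higher (1941) and 938 were lower. In mean TPM, 8 of 16 glycolysis and 7 of 16 mitochondrial-side members were higher in these dividing cells, beside 45.6% of all genes. Pgam1 still differed by 2.93, detected in 91.7% and 52.6% of cells, and Pgk1 by 2.42. Aldoa differed by -1.74, Slc16a3 by -1.59 and Gpi1 by -1.55. Above 3500 genes the 21 dividing cells had a glycolysis median of 15007 TPM, and the 90 Treg cells between 1500 and 2500 genes 8728 TPM. The part of gene number in the class difference was not tested further.

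**Figure D5:**
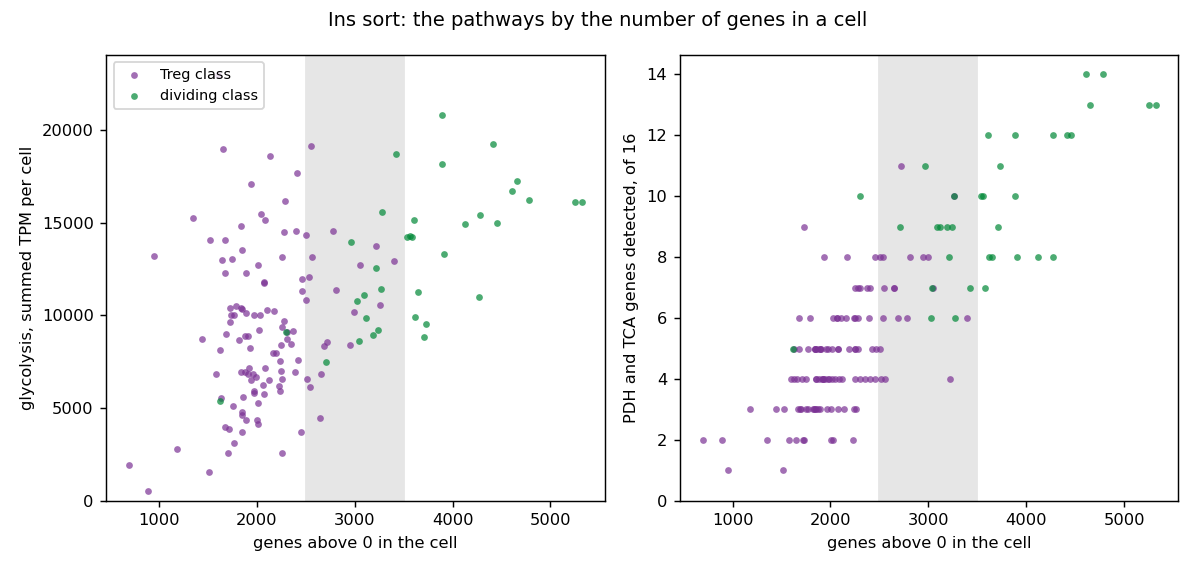
Summed glycolysis TPM (left) and number of the 16 pyruvate dehydrogenase and TCA genes detected (right) in each Ins Treg and Ins dividing cell, against its number of genes above 0, with the band from 2500 to 3500 genes in grey. Inside the band the glycolysis medians are 10955 TPM (12 dividing cells) and 10839 TPM (19 Treg cells).

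In the HIP sort the 9 dividing cells had a median difference of 2.69 and 4.13 from T follicular helper cells for the lists, against 0.85 for 9181 genes. Of 16 members each, 14 and 15 were higher by 1 or more and none lower, where 46.1% of all genes were higher and 1.51% lower. Tpi1 differed by 6.03, Pgam1 by 5.82, Idh3g by 5.06 and Cs by 4.99. Cs averaged 351 TPM in 9 dividing and 153 TPM in 111 T follicular helper cells. Gapdh was between 3761 and 6381 TPM in all 9 cells, Ldha between 1191 and 5462 TPM and Pgk1 between 157 and 1330 TPM. Suclg2 was listed at 0 in all 9, and Slc2a1 and Slc2a3 were each detected in 4. In the Ins sort the same comparison gave medians of 1.89 and 2.03 (8224 genes, 0.83), with 11 and 12 members higher by 1 or more and none lower. There the background was 44.3% higher and 1.17% lower, and Aldoa differed by -0.43. By run, 11 and 9 members were above and none below, where 38.6% and 3.25% of genes were. In the HIP sort 16 and 15 were above the T follicular helper runs in the single dividing run of 7 cells, where 76.2% of genes were above and 14% below. In mean TPM, 14 and 10 of 16 were higher in the HIP sort, beside 43.1% of genes. For the Ins sort these were 11 and 6 of 16, beside 44.8%. The Ins median log2 ratio of mean TPM was 0.51 for glycolysis and -0.10 for the mitochondrial side, against -0.15. Gene number differs too, at medians of 3992 against 1951 (HIP) and 3610 against 1963 (Ins).

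Against the Ins dividing cells, HIP dividing cells had median differences of 0.98 for glycolysis and 1.13 for the mitochondrial side, against 0.17 for 9539 genes. Of 16 members each, 8 and 9 were higher by 1 or more and none lower, where 17.2% of all genes were higher and 10% lower. Suclg1 differed by 2.98 (215 against 137 TPM), Idh3b by 2.59, Dld by 2.54 and Slc2a1 by 2.42, detected in 4 of 9 and 2 of 35 cells. Pkm and Ldha were lower in HIP (1649 against 2003 TPM and 2633 against 3107 TPM). Only 1 HIP run held at least 5 such cells (7). There 9 of 16 glycolysis and 8 of 16 mitochondrial-side members were above all Ins runs, beside 36.4% of genes. Pkm was below, beside 19.1% of genes. Gene number differs too, at 3992 and 3610, and Foxp3 was detected in 27 of 35 Ins and 0 of 9 HIP cells. Without the Foxp3-detected Ins cells, the mitochondrial median was 0.07 and the glycolysis median 0.73.

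In the HIP sort, cluster 2 and T follicular helper cells differed by medians of 0.15 and 0.26, against 0.09 for 5835 genes. As a ratio of mean TPM the mitochondrial median was -0.115, and 5 of 16 of its members were higher. Pkm (1452 against 1238 TPM) was the 1 glycolysis member higher by 1 or more, and Pfkp (63.8 against 173 TPM) and Pgam1 (110.0 against 305 TPM) were lower, where 8.57% of all genes were higher and 2.78% lower. Pfkp was detected in 23.0% and 37.8% of cells. Cs, Pdha1, Pdhb, Fh1, Pfkl, Gpi1 and Pkm were above in both runs, as 23.1% of all genes were, and Pfkp and Pgam1 below, as 14.7% were. In the Ins sort the same pair gave -0.06 and -0.16, against -0.01, with 3 of 32 members higher and 3 lower by 1 or more beside 9.69% and 8.2% of genes. Only Dld was above in every run there and none below, beside 6.02% and 6.97% of genes.

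The T follicular helper cells of the 2 sorts were close. The median HIP minus Ins difference was -0.21 for glycolysis and -0.28 for the mitochondrial side, against -0.06 for 5779 genes. The glycolysis median was 0.00793 as a ratio of mean TPM and 0.12 without Ins run 3. Only Idh3g was higher by 1 or more (281 against 135 TPM) and none was lower, where 2.08% of all genes were higher and 3.79% lower. Pgk1 (531 against 420.5 TPM) and Hk1 (46.3 against 20.2 TPM) were next, and Cs (153 against 225 TPM), Tpi1 (350.4 against 357 TPM) and Dlat (7.71 against 28.3 TPM) were on the lower side. Dlat, the acetyltransferase core of the pyruvate dehydrogenase complex, was detected in 6.31% and 18.0% and lay below in both HIP runs, as 10.1% of genes did (8.25% above).

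Cluster 2 of the sorts differed by 0.07 and 0.23, against 0.05 for 6079 genes. Without Ins run 3 these medians were -0.07 and -0.19, and as a ratio of mean TPM the mitochondrial one was -0.0917. Aldoa (1425 against 1038 TPM), Gpi1 (488 against 352 TPM) and Mdh1 (167 against 78.9 TPM) were higher in HIP by 1 or more, and Dld (43.4 against 208 TPM), Pgam1 (110.0 against 299 TPM) and Eno1 (588 against 946 TPM) lower. Among all genes 8.42% were higher and 6.74% lower, so these 3 and 3 of 32 are near the background. Pgk1 and Mdh1 were above in both HIP runs, beside 9.99% of genes, and Dld, Pgam1, Pfkp and Fh1 below, beside 7.21%.

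Cluster 4 was set beside Ins Treg cells. On summed TPM both pathways were lower in cluster 4, with ratios of medians of 0.401 for glycolysis and 0.808 for the mitochondrial side. With Igj and Rn45s removed from the total, only glycolysis stayed lower. The mitochondrial median then was 2573 TPM in cluster 4 and 2508 TPM in Treg cells. In mean log2(TPM + 1), which follows detection, the median difference was -0.74 for glycolysis and 1.16 for the mitochondrial side, against 0.38 for 7053 genes, with median gene numbers of 2477 and 2017. Of 16 glycolysis members 2 were higher by 1 or more and 7 lower, and of 16 mitochondrial-side members 9 were higher and 2 lower, where 28.2% of all genes were higher and 10.9% lower. Ldha had a lowest, median and highest value of 0, 224 and 1275 TPM in 21 cells, against 0, 2190 and 7527 TPM in Treg cells, a difference of -3.87. Eno1 differed by -2.20, Gpi1 by -2.07 and Pdha1 by -1.82.

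Higher in cluster 4 were Cs (228 against 138 TPM, detected in 76.2% and 33.9%), Idh2 (200.2 against 49.0 TPM, 42.9% and 6.96%) and Mdh1 (323 against 250.1 TPM). Suclg2 was detected in 5 of 21 cells (23.8%, interval 8.22% to 47.2%) and 1 of 115 Treg cells (0.870%), and its mean of 62.2 TPM exceeded the 49.1 TPM of Sucla2 in cluster 4. In every run 11 members were above and 6 below, where 29.2% and 19.8% of all genes were.

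Within a class, the 2 sums were only weakly related over cells. The rank correlation of the glycolysis and mitochondrial sums over cells was 0.12 in 111 HIP T follicular helper cells, 0.22 in 115 Ins Treg cells and 0.28 in 35 Ins dividing cells. The points share depth and the detection of each library. The number of members detected correlated with gene number at 0.59 for glycolysis and 0.68 for the mitochondrial side in the first group and 0.58 and 0.61 in the second. The median correlation between 2 glycolysis genes was 0.06 and 0.07 in these 2 groups. Over all pairs of genes detected in 10% of the cells it was 0.02 and 0.01. Among members the highest pair was Tpi1 with Eno1 in HIP T follicular helper cells (0.44) and Gapdh with Ldha in Ins Treg cells (0.36). Pgam1 with Pkm reached 0.54 in Ins dividing cells.

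Of 54 other genes of glucose and mitochondrial metabolism 47 were in the table. In Ins Treg against T follicular helper cells 1 was higher and 1 lower by 1 or more, Sdhd (1.01), a succinate dehydrogenase subunit, and Hif1a (-1.02), the oxygen-regulated factor. In Ins dividing against Treg cells 21 of 47 were higher and 0 lower, near the 42.3% of all genes that were higher, among them Sdha (3.81), the flavoprotein subunit of succinate dehydrogenase. In HIP cluster 2 Hif1a was -1.42 and Taldo1, the transaldolase of the pentose phosphate pathway, 1.16 from T follicular helper cells. In cluster 4 against Ins Treg cells 13 of 47 were higher and 1 lower by 1 or more, beside 28.2% and 10.9% of all genes. Hif1a was -3.56 and Taldo1 2.98 in this comparison. Hif1a was detected in 14.3% of cluster 4 and 53.0% of Treg cells, and Taldo1 in 90.5% and 55.7%. The Taldo1 difference lay in detection, since its mean TPM was slightly lower in cluster 4 than in Treg cells.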

How the data were processed

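Single-cell RNA was measured in 441 cells of 2 tetramer sorts. The values deposited by the authors are natural log values that equal ln(TPM/10 + 1), since the back-transformed values sum to 1000000 in each cell, whereas TPM itself had been assumed when the comparisons were planned. The submitters' processing notes list TopHat, Bowtie, RSEM 1.2.8 and mm10 without saying what each was used for. TPM was computed as 10 × (exp(value) − 1), with Python 3.11.15, pandas 2.3.3, numpy 2.4.6 and SciPy 1.17.1. Classes and sorts were taken from the authors' annotation and matched the labels in 441 of 441 cells.

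A gene was detected at 1 TPM. A difference is that of mean log2(TPM + 1) between groups of cells; genes detected in 10% of either group formed the background, and 1 was the threshold for counting. The code was tested on simulated data. Runs of 96 cell-name numbers (5 runs, each of 1 sort) were compared where a class held 5 or more cells of a run; no label says what a run stands for. Intervals for shares are exact Clopper-Pearson (95%), the limit for a count of 0 is 3 cells, and both cover counting error only. Read depth is unknown, since TPM keeps none, and cells held 625 to 5929 genes (median 2081). Promoters came from RefSeq (GRCm38.p6). The members and lists were chosen with earlier results of these data known. Full values are given for the 3 largest differences each way per comparison and for the isozyme pairs, Gapdh, Ldha, Slc16a3, Pdha1, Cs and Idh2. Alternatives were another pseudocount, ratios of mean TPM, filters, gene-number bands and leaving out runs.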

Additional observations from a re-analysis of the deposited data

How the results depend on the processing

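Medians of the lists that did not leave out a run were recomputed 88 times, of which 72 moved by less than the spread between runs and 16 by more. The dividing minus Treg median in the Ins sort was 0.76 for glycolysis and 1.04 for the mitochondrial side with a pseudocount of 10 TPM, 0.0671 and 0.0911 as a ratio of mean TPM, 0.70 for glycolysis in cells with 1500 to 3500 genes, and 0.17 and 0.84 with 2500 to 3500 genes, the last chosen after seeing the data. With the ratio of mean TPM the medians were 0.0751 (glycolysis) and -0.115 (mitochondrial side) for HIP cluster 2 minus T follicular helper cells, 0.00793 (glycolysis) for HIP minus Ins T follicular helper cells, -0.0917 (mitochondrial side) for HIP minus Ins cluster 2, and 0.27 (mitochondrial side) for HIP minus Ins dividing cells. The Treg minus T follicular helper median for glycolysis in the Ins sort was -0.16 as a ratio of mean TPM and -0.0738 in cells with 1500 to 3500 genes. Signs therefore differ from the reported ones for these 2 values, for HIP cluster 2 (mitochondrial side) and for the HIP minus Ins comparisons of T follicular helper cells (glycolysis) and cluster 2 (mitochondrial side) with a ratio of mean TPM. The median of HIP minus Ins dividing cells for the mitochondrial side was 0.55 with a pseudocount of 10 TPM and 0.0711 without Foxp3-detected cells. HIP cluster 2 minus T follicular helper cells gave 0.41 for glycolysis after a 10% detection filter and 0.0343 for the mitochondrial side in cells with 1500 to 3500 genes. The ratio of glycolysis to mitochondrial sums without Gapdh was 2.74, 2.51, 2.88, 3.08, 2.63, 2.82, 3.22 and 1.10 for T follicular helper HIP and Ins, Treg Ins, cluster 2 HIP and Ins, dividing HIP and Ins and cluster 4 cells; Gapdh is part of the glycolysis sum. The cause of the other shifts was not tested. Leaving out a run, the medians for glycolysis and then the mitochondrial side ranged from 0.04 to 0.32 and -0.11 to -0.07 (Treg minus T follicular helper, Ins), 1.13 to 1.63 and 1.34 to 2.46 (dividing minus Treg), 0.0309 to 0.16 and 0.13 to 0.29 (cluster 2 minus T follicular helper, HIP), -0.18 to 0.12 and -0.40 to -0.12 (HIP minus Ins, T follicular helper), -0.07 to 0.09 and -0.19 to 0.25 (HIP minus Ins, cluster 2) and 0.62 to 1.40 and 0.73 to 0.96 (HIP minus Ins, dividing). Without Ins run 3 the glycolysis median of HIP minus Ins T follicular helper cells was 0.12, and for cluster 2 the glycolysis median was -0.07 and the mitochondrial median -0.19, all of the opposite sign. At 10 TPM, 15 of 256 detected shares moved beyond their interval, 7 of them for Ogdh and 5 for Gpi1. No paired analysis was possible because no label pairs the cells of the sorts. Read depth, which is unknown, limits every share of a low gene.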
